A study of Mus musculus with 262 samples.

Results

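Single stretches of 2 neighbouring kinds of kidney tubule were dissected by hand from mouse kidney and sequenced one by one: 11 of the cortical collecting duct (CCD) and 8 of the cortical thick ascending limb (cTAL). These 19 tubules were taken by their labels alone, with no measured value used, and they are 19 of the 262 samples of a study of the mouse collecting duct whose other samples are single cells and sorted or enriched cells. All mice were male C57BL/6 animals aged 2 months, and the labels name no treatment, no altered gene and no transgene for the tubules. The CCD and the cTAL therefore differ by segment only, as far as the labels go. The labels do not say how many mice gave the tubules, so the p-values below measure the spread between tubules, some of which may share a mouse. A tubule is a mixture of cells, and fewer cells of a type and less RNA per cell cannot be told apart in it.

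The thick ascending limb takes up sodium, potassium and chloride together through one cotransporter and lets no water follow, and the voltage this sets up across the wall drives calcium and magnesium between its cells. The collecting duct makes the last adjustments to urine under aldosterone and vasopressin: its principal cells carry the epithelial sodium channel and the water channels, and its intercalated cells, of the acid-secreting type A and the base-secreting type B, carry proton pumps and anion exchangers. The question here was which transporters, receptors, signalling molecules, regulators and metabolic genes separate both segments beyond the few genes by which they are usually told apart.

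The deposited values are TPM, a level corrected for transcript length and set to the same total in every library, so the number of reads behind a value is unknown. CCD tubules had 7621 to 14004 genes at 1 TPM or more (median 12282), and cTAL tubules had 8094 to 12385 (median 10730). The 100 most abundant genes took a median of 30.6% of the total in CCD and 40.0% in cTAL, and mitochondrially encoded genes took 3.21% and 6.66%. One CCD tubule, headed m2_CCD2 in the table, stood apart with the fewest genes and far from the other tubules on the second principal component, which held 18.6% of the variance, while the first, with 26.9%, had every CCD tubule on one side and every cTAL tubule on the other. Over the genes tested, the median Spearman correlation was 0.863 between CCD tubules, 0.796 between cTAL tubules and 0.741 across the segments.

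Of the 47069 genes in the table, 13520 averaged 1 TPM or more across the 19 tubules and were tested with limma on log2(TPM + 1). All differences below are CCD minus cTAL on that log2 scale, on which the change of a low gene is understated, with their standard error (SE), so that negative values are higher in cTAL. A gene was called at a Benjamini-Hochberg adjusted p under 0.05. At this threshold 2526 genes (18.7%) were called, 1782 (13.2%) higher in CCD and 744 (5.5%) higher in cTAL. A stricter rule also asked for a log2 difference of at least 1 and for 2 groups of tubules that did not overlap; genes that met it are called separated below. There were 426 separated genes higher in CCD (3.15% of those tested) and 239 higher in cTAL (1.77%), and 822 in all without the tubule m2_CCD2 against 665 with it.

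The balance of the calls moved with the scaling. The median difference over all tested genes was 0.31, and 70.5% of the calls were higher in CCD. Median-of-ratios scaling brought that median to 0.14 and the share to 58.6%, and quantile normalization brought them to -0.03 and 49.5%. The medians of gene lists given below are to be read against this shift of 0.31. Counts of calls in a list are likewise to be read beside the shares over all tested genes, 13.2% higher in CCD and 5.5% higher in cTAL.

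**Figure D1:**
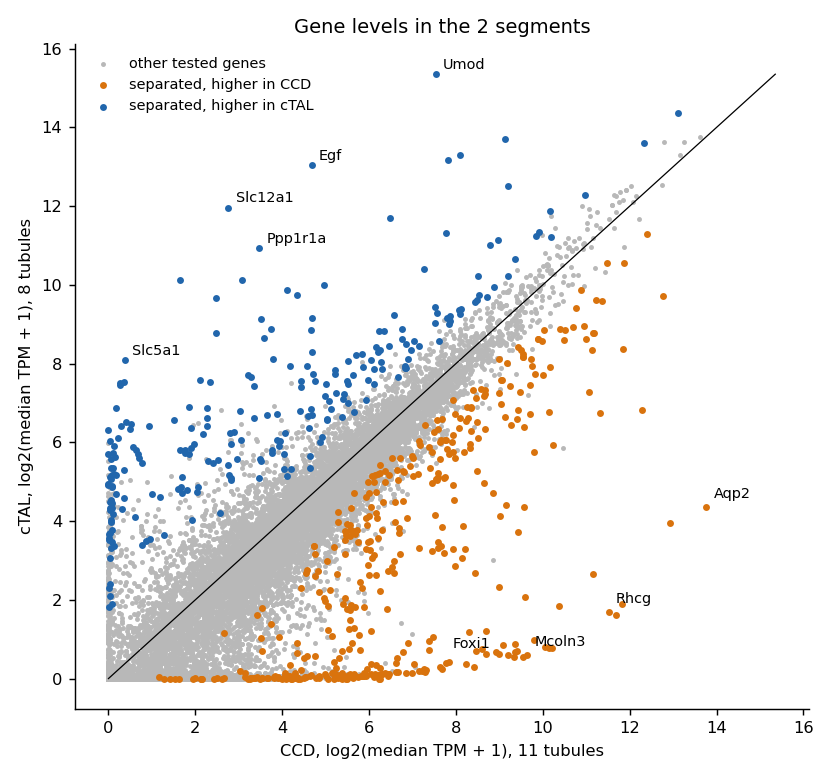
Each point is 1 of the 13520 tested genes, placed by log2 of its median TPM plus 1 in the 11 CCD tubules (horizontal axis) and in the 8 cTAL tubules (vertical axis). The 426 genes separated towards CCD lie below the diagonal and the 239 separated towards cTAL above it, and 9 of the separated genes are named.

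The labels held against the genes that define each segment. All 8 principal cell markers tested were higher in CCD, with a median difference of 9.22, and their summed level was 26368 to 48119 TPM in CCD and 44.2 to 214 TPM in cTAL. All 15 intercalated cell markers were higher in CCD, with sums of 7186 to 10962 TPM against 606 to 1000.5 TPM. Of 14 tested markers of the thick ascending limb, 12 were higher in cTAL with a median of -5.94, and the exceptions were the potassium channel Kcnj1 and the chloride channel subunit Bsnd, both of which the collecting duct is known to express. The fifteenth, Nos1, an enzyme of macula densa cells, was too low to be tested and reached 0.15 TPM in CCD and 0.02 TPM in cTAL at most.

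Markers of other cells were present in both segments. Proximal tubule markers summed to 365 to 12489 TPM in CCD (median 2132) and 187 to 5411 TPM in cTAL (median 1014), most of it from Kap, and none of 12 was called. Of 9 tested markers of the distal convoluted and connecting tubule 5 were called higher in CCD, among them Calb1, S100g and Slc8a1, and 2 in cTAL, Klk1 and Wnk4. The list summed to 552 to 5563 TPM in CCD (median 2370) and 3932 to 13480 TPM in cTAL (median 9758). Most of the sum in cTAL came from Klk1 alone, and how much of it was RNA of these segments was not tested. Of 5 tested markers of the thin limb and medullary collecting duct 2 were called higher in CCD, among them Cryab (2.69 ± 0.26), and 1 in cTAL, and of 2 tested urothelial markers Upk1a was called higher in cTAL (-1.88 ± 0.62, adjusted p = 0.0352). The Upk1a call was lost with a pseudocount of 0.1 (adjusted p = 0.170), without the filter on low values (0.0962), by the exact rank-sum test (0.113), with means per header prefix (0.296), and without any 1 of CCD tubules m3_CCD1, m4_CCD2, m7_CCD1 and m7_CCD2 or of the cTAL tubules other than m1_cTAL1 and m2_cTAL1 (0.0545 to 0.0774). In addition, 1 of 9 endothelial markers (Plvap, a protein of capillary fenestrae) and 1 of 5 stromal markers (Dcn, a matrix proteoglycan) were called higher in CCD, and none of 9 leukocyte markers was. At an unadjusted limma p under 0.05 there was 1 proximal marker and no leukocyte marker, and the exact rank-sum test called none of either list. The call of Plvap (1.32 ± 0.44, adjusted p = 0.0364) was lost without any 1 of CCD tubules m1_CCD1, m2_CCD2, m4_CCD1, m5_CCD1 and m7_CCD1 or of the cTAL tubules other than m6_cTAL1 and m6_cTAL2, with adjusted p from 0.05305 to 0.0876. Endothelial markers summed to 132 to 681 TPM in CCD and 57.3 to 359 TPM in cTAL, and stromal markers to 33.7 to 117 TPM and 0.16 to 60.7 TPM. Their part in the results below was not tested.

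Under the naming rule 15 genes led each direction by size among separated genes that averaged 10 TPM or more in the higher segment. In CCD these were Rhcg, Hsd11b2, Aqp2, Aqp3, Scnn1b, Slc26a4, Rhbg, Fxyd4, Mcoln3, Scnn1g, Foxi1, Kcne1, Rnf186, Spink8 and Atp6v1g3, with differences from 9.96 down to 8.40. Most of these are textbook principal or intercalated cell genes, and the less familiar ones are Mcoln3, a cation channel of endosomes, Rnf186, a ubiquitin ligase, Spink8, a protease inhibitor of the Kazal type, and Kcne1, a potassium channel subunit. Mcoln3 lay at 346 to 1626 TPM (median 796) in CCD and at 0.37 to 1.04 TPM (median 0.515) in cTAL, and Kcne1 at 554 to 917 TPM (median 680.3) and 0.27 to 2.28 TPM (median 0.615). Spink8 lay at 902 to 1797 TPM (median 1328) in CCD and 0.59 to 7.58 TPM (median 2.56) in cTAL (8.48 ± 0.27, adjusted p = 7.31e-17). The lowest CCD tubule of each of the 15 stood over 300 TPM above the highest cTAL tubule.

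In cTAL the 15 leading genes were Slc12a1, Egf, Umod, Ppp1r1b, Ppp1r1a, Gpx6, Slc5a1, Pla1a, Tmem207, Nccrp1, Lpl, Cldn16, Shd, Cldn10 and Egfl6, with differences from -8.70 to -5.84. Besides the cotransporter, the growth factor and uromodulin, the list held both small inhibitors of protein phosphatase 1, Ppp1r1a and Ppp1r1b (DARPP-32). Ppp1r1a lay at 1604 to 2402 TPM (median 1956) in cTAL and at 1.81 to 39.3 TPM (median 10.1) in CCD (-7.38 ± 0.46, adjusted p = 1.27e-11), and Ppp1r1b differed by -7.70 ± 0.43. Lpl, the lipase that frees fatty acids from circulating triglyceride, lay at 757 to 1610.5 TPM (median 1107) in cTAL and at 1.02 to 81.8 TPM (median 7.38) in CCD (-6.52 ± 0.56, adjusted p = 4.37e-09). Gpx6, a glutathione peroxidase, lay at 872 to 1533 TPM (median 1113) and 0.68 to 85.9 TPM (median 2.11). All 8 cTAL tubules exceeded all 11 CCD tubules for each of these genes, although single CCD tubules carried up to 81.8 TPM of Lpl and 85.9 TPM of Gpx6.

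Salt transport is the main task of the limb. Of 21 tested genes of thick ascending limb salt transport, 9 were higher in cTAL and 2 in CCD, with a median of -0.70. Slc12a1, the sodium, potassium and chloride cotransporter that furosemide blocks, lay at 1878 to 4429.5 TPM (median 3974) in cTAL and at 2.02 to 25.5 TPM (median 5.78) in CCD (-8.70 ± 0.39, adjusted p = 3.70e-14). Slc9a3, the apical sodium and proton exchanger, lay at 22.5 to 117 TPM (median 64) in cTAL and at 0 to 2.8 TPM (median 0.03) in CCD (-5.67 ± 0.37, adjusted p = 3.70e-11). The cotransporter was low but above 1 TPM in every CCD tubule, while the exchanger passed 1 TPM in every cTAL tubule and in 1 CCD tubule.

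The small regulators of the sodium pump split between the segments. Atp1b1, the beta subunit of the pump, was called higher in cTAL (-0.67 ± 0.12, adjusted p = 3.19e-04). Fxyd2, the gamma subunit that tunes the pump, lay at 2784 to 6495 TPM (median 3765) in cTAL and at 345 to 1988 TPM (median 1149) in CCD (-1.95 ± 0.26, adjusted p = 4.10e-06). Fxyd4, its relative in the collecting duct, lay at 6006 to 11023 TPM (median 7848) in CCD and at 4.33 to 40.2 TPM (median 14.5) in cTAL (9.04 ± 0.35, adjusted p = 3.25e-15). Fxyd2 was thus separated towards cTAL and Fxyd4 towards CCD.

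Bsnd, barttin, an accessory subunit of basolateral chloride channels, lay at 199 to 474 TPM (median 342) in cTAL and 77.1 to 373 TPM (median 205) in CCD and was not called (adjusted p = 0.0556), though it passed the threshold without CCD tubule m1_CCD1 or m4_CCD2 or cTAL tubule m2_cTAL1, with differences from -0.79 to -0.78 and adjusted p from 0.0269 to 0.0359, and under quantile normalization (adjusted p = 0.0102) and median-of-ratios scaling (adjusted p = 0.00517).

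Potassium channels went both ways, with 5 of 24 tested higher in each segment. Kcnj1 (ROMK), which returns potassium to the lumen in both segments, lay at 729.7 to 1049 TPM (median 950.2) in cTAL and 434 to 1658 TPM (median 942) in CCD, and the difference was 0.04 ± 0.21 (adjusted p = 0.928). Higher in CCD were the pair Kcnq1 (2.21 ± 0.23) and Kcne1 (8.57 ± 0.21), which form a voltage-gated channel together, and Kcnj13 (4.40 ± 0.62). Kcnq1 lay at 118 to 315 TPM (median 243) in CCD and at 22.6 to 67.8 TPM (median 53.1) in cTAL. Higher in cTAL were the sodium-activated channel Kcnt1 (-3.55 ± 0.65), the calcium-activated channel Kcnn2 (-3.14 ± 0.57) and the 2-pore channel Kcnk1 (-1.48 ± 0.28). Kcnt1 lay at 0.02 to 50 TPM (median 25.1) in cTAL and 0 to 16.7 TPM (median 0.09) in CCD, with 1 cTAL tubule, m4_cTAL1, as low as the CCD tubules and 1 CCD tubule, m3_CCD1, at the level of the others.

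Principal cells take up sodium and water. Of 19 tested genes of this machinery, 16 were higher in CCD and none in cTAL, with a median of 2.47. Aqp2, the vasopressin-regulated water channel, lay at 10200.0 to 22096 TPM (median 13951) in CCD and 3.88 to 35.2 TPM (median 19.5) in cTAL, and Aqp3, its basolateral counterpart, at 1692 to 4014 TPM (median 3282) and 0.77 to 6.96 TPM (median 2.04). Of 6 tested aquaporins 5 were higher in CCD, among them Aqp4 (5.13 ± 0.37) and Aqp6 (6.10 ± 0.29), a channel of intercalated cell vesicles. In cTAL the named water channels stayed under 1 TPM for Aqp4 and Aqp6 and under 40 TPM for Aqp2 and Aqp3.

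The 3 subunits of the epithelial sodium channel did not share one pattern. Scnn1b lay at 938 to 1680.4 TPM (median 1188) in CCD and 0.18 to 1.45 TPM (median 0.715) in cTAL (9.41 ± 0.18), and Scnn1g at 498 to 1035 TPM (median 747) and 0.17 to 0.86 TPM (median 0.465) (8.94 ± 0.19). Scnn1a, the alpha subunit, was well above 0 in both segments, at 179 to 637 TPM (median 389) in CCD and 95.2 to 212 TPM (median 126) in cTAL (1.50 ± 0.22, adjusted p = 1.54e-05). Only in the alpha subunit did the groups overlap, by 1 tubule of each. The proteases that can cleave the channel were present in both segments and higher in CCD: Tmprss2 by 1.26 ± 0.30, St14 by 1.10 ± 0.29 and Prss8 by 0.75 ± 0.19.

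The aldosterone pathway was higher in CCD at several steps. Nr3c2, the mineralocorticoid receptor, lay at 34.7 to 113 TPM (median 46.4) in CCD and 0.81 to 22 TPM (median 13.8) in cTAL (2.24 ± 0.40, adjusted p = 2.35e-04). Hsd11b2, the enzyme that shields the receptor from glucocorticoids, lay at 2805 to 7497 TPM (median 3598) in CCD and 0.69 to 7.38 TPM (median 2.73) in cTAL (9.86 ± 0.27, adjusted p = 3.66e-18). Sgk1, a kinase that aldosterone induces, lay at 20.3 to 977 TPM (median 463) in CCD and 0.26 to 30.5 TPM (median 7) in cTAL (5.23 ± 0.67, adjusted p = 2.49e-06). The receptor and Hsd11b2 were separated, while Sgk1 overlapped only through m2_CCD2, the lowest of the CCD tubules. Nedd4l, the ubiquitin ligase that removes the sodium channel, was higher in CCD too (2.47 ± 0.31), and the glucocorticoid receptor Nr3c1 was lower in CCD (-2.19 ± 0.46, adjusted p = 0.00124).

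In the WNK kinase pathway, which sets the activity of the chloride cotransporters, 3 of 14 tested genes were higher in CCD and 2 in cTAL. Wnk4 lay at 237 to 448 TPM (median 344) in cTAL and 47.2 to 108 TPM (median 70.3) in CCD (-2.27 ± 0.19, adjusted p = 1.89e-09). Klhl3, the adaptor that marks WNK kinases for removal, lay at 0.18 to 3.48 TPM (median 0.595) in cTAL and 0 to 4.24 TPM (median 0.76) in CCD and was not called (adjusted p = 0.987). Every cTAL tubule was above every CCD tubule for Wnk4.

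Acid and base handling was mostly a CCD matter. Of 31 tested genes 16 were higher in CCD and 3 in cTAL, with a median of 1.84. Rhcg and Rhbg, the ammonia channels of the collecting duct, lay at 2144 to 3962 TPM (median 2922) and 884 to 1392 TPM (median 1137) in CCD and at 0.3 to 4.12 TPM (median 2.21) and 0.24 to 4.34 TPM (median 0.72) in cTAL. Among the chloride and bicarbonate exchangers, Slc4a1 (AE1, type A cells) differed by 7.78 ± 0.28 and Slc26a4 (pendrin, type B cells) by 9.28 ± 0.20. Slc4a9 (AE4) differed by 8.33 ± 0.30 and was not limited to 1 intercalated type. Its single-cell mean was highest for type B, at 405.7 TPM. Type A cells still averaged 229.9 TPM, and 68 of the 87 reached 1 TPM. In CCD Slc26a4 lay at 746 to 1556 TPM (median 1057) and Slc4a1 at 122 to 442 TPM (median 339), so that RNA of genes of both intercalated types was in every CCD tubule. Hmx2, a homeobox factor, and Insrr, a receptor that senses alkaline pH, are further intercalated cell genes and differed by 7.19 ± 0.29 and 7.29 ± 0.29.

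Carbonic anhydrases went to different segments by isoform. Car2, the cytosolic form, lay at 1845 to 2831 TPM (median 2326) in CCD and 349 to 724 TPM (median 441) in cTAL (2.38 ± 0.11), and the membrane form Car12 at 459.6 to 1669 TPM (median 887) in CCD and 2.51 to 70.1 TPM (median 52.8) in cTAL (4.88 ± 0.46). Car4, a membrane form anchored by a lipid tail, was the reverse, at 209 to 579.7 TPM (median 469) in cTAL and 0.14 to 56 TPM (median 12.4) in CCD (-5.74 ± 0.65, adjusted p = 4.44e-07). Car15 was high in both, at 113 to 1911 TPM (median 1015) in cTAL and 438 to 2199 TPM (median 1522) in CCD, and was not called (adjusted p = 0.347). All forms but Car15 were separated.

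The vacuolar proton pump, which acidifies urine as well as the organelles of all cells, was higher in CCD for 18 of 23 tested subunits and accessory genes and higher in cTAL for none, with a median of 1.07. Atp6v1g3 lay at 444 to 959 TPM (median 891) in CCD and 0.54 to 3.35 TPM (median 0.96) in cTAL (8.40 ± 0.25), Atp6v0d2 at 159 to 700.3 TPM (median 505) and 0.11 to 15.9 TPM (median 4) (6.66 ± 0.46), and Atp6v1c2 at 135 to 802 TPM (median 691) and 0.47 to 27.8 TPM (median 12.3) (6.12 ± 0.52). Atp6v1b1, the B1 subunit whose loss causes distal renal acidosis, was far from absent in cTAL, at 102 to 268 TPM (median 172) against 480.1 to 893 TPM (median 608) in CCD (2.00 ± 0.18). Atp6v0a4 overlapped between the segments (0.77 ± 0.20, adjusted p = 0.00687), and its call was lost under median-of-ratios scaling (0.57, adjusted p = 0.0736). Atp6ap2, the pump's accessory protein that is also known as the prorenin receptor, lay at 525 to 928 TPM (median 693) in CCD and 78.7 to 136 TPM (median 111) in cTAL (2.59 ± 0.13, adjusted p = 3.78e-13). Of the widely expressed partners, Atp6v0d1 had a median of 291 TPM in CCD and of 53 TPM in cTAL, with no overlap (2.49 ± 0.24, adjusted p = 2.87e-08) and Atp6v1g1 was also called higher in CCD (0.59 ± 0.14, adjusted p = 0.00472), a call lost under quantile normalization (adjusted p = 0.0819) and median-of-ratios scaling (adjusted p = 0.121). Atp6v0d1 and Hsd11b2 end next to each other on opposite strands of chromosome 8, at 105524465 and 105523988. Whether they share reads was not tested. In the single cells the means of Atp6v0d1 were 377, 24.95 and 65.0 TPM in principal, type A and type B cells. Those of Hsd11b2 were 1009, 97.5 and 3.01 TPM. Atp6v1c1 (-0.05 ± 0.22, adjusted p = 0.907), Atp6v1b2 (0.44 ± 0.22, adjusted p = 0.178) and Atp6v0a1 (-0.16 ± 0.35, adjusted p = 0.803) were not called. Both proton and potassium pumps, the gastric form Atp4a (3.33 ± 0.76) and the colonic form Atp12a (2.63 ± 0.64), were also called higher in CCD and overlapped between the segments. In the single cells Atp12a reached 1 TPM in 0 of 74 principal, 0 of 87 type A and 0 of 23 type B cells. Atp4a did so in 29, 18 and 5 of them.

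Of 26 tested calcium and magnesium genes 9 were called in each direction, with a median of 0.01. Over all tested genes 13.2% were called higher in CCD and 5.5% higher in cTAL. Cldn16, a claudin of the route between cells, whose loss causes magnesium wasting, lay at 319 to 573 TPM (median 434) in cTAL and 0.24 to 14.1 TPM (median 4.6) in CCD (-6.37 ± 0.43, adjusted p = 7.02e-11), and its partner Cldn19 at 336 to 708 TPM (median 556) and 0.5 to 37.4 TPM (median 10.3) (-5.57 ± 0.41). Casr, the calcium-sensing receptor, lay at 45.9 to 186 TPM (median 113) in cTAL and 0.16 to 41.3 TPM (median 24.3) in CCD (-2.79 ± 0.63, adjusted p = 0.00233). Pth1r, the parathyroid hormone receptor, lay at 228 to 478 TPM (median 401) in cTAL and 0.2 to 99.7 TPM (median 11.1) in CCD (-4.91 ± 0.71, adjusted p = 1.38e-05). Each of these 4 was separated. Tmem207 (-6.81 ± 0.40), Tmem72 (-2.90 ± 0.27), Enox1 (-2.91 ± 0.44) and Cldn14 (-2.65 ± 0.49) completed the limb's marker list; the last is the claudin that the calcium sensor is known to induce, and 1 cTAL tubule, m3_cTAL1, was listed at 0 for it and for Enox1.

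Towards CCD went genes of the route through cells and a cation channel family. Calb1, a calcium-binding protein of the cytosol, lay at 254 to 588 TPM (median 351) in CCD and 0.16 to 14.4 TPM (median 0.62) in cTAL (7.40 ± 0.38, adjusted p = 5.44e-13). Trpv4, a channel opened by flow and low osmolality, lay at 111 to 313 TPM (median 218) in CCD and 0.08 to 4.82 TPM (median 0.325) in cTAL (6.64 ± 0.38, adjusted p = 2.84e-12), and Trpv6, a calcium entry channel, at 5.3 to 62 TPM (median 19) and 0 to 0.22 TPM (median 0.005) (4.03 ± 0.39). Stc1, the hormone stanniocalcin 1, lay at 13.4 to 69.5 TPM (median 49.2) in CCD and 0.01 to 1.61 TPM (median 0.075) in cTAL (5.04 ± 0.36). These 4 genes were separated, and 5 of 13 tested genes of the wider channel families (TRP and polycystin) were higher in CCD with none in cTAL. S100g, a second calcium buffer, ranged most widely, from 110.5 to 4602 TPM over the CCD tubules (4.10 ± 0.61).

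Tight junction claudins went to both sides, with 6 of 14 tested higher in CCD and 4 in cTAL. Cldn4, known as an anion route with Cldn8, lay at 74.8 to 302 TPM (median 140.2) in CCD and 0.02 to 0.25 TPM (median 0.14) in cTAL (6.98 ± 0.29). Cldn8 lay at 559 to 1468 TPM (median 860.0) in CCD and 142 to 277 TPM (median 246) in cTAL (1.97 ± 0.15), and Cldn7 at 366 to 571 TPM (median 506) and 73.1 to 200.2 TPM (median 152) (1.76 ± 0.17). Cldn10, the sodium route of the limb, lay at 809 to 1203 TPM (median 936) in cTAL and 0.96 to 42.5 TPM (median 16.4) in CCD (-6.32 ± 0.59). Cldn4 was near 0 in every cTAL tubule, whereas Cldn7 and Cldn8 were only lower there. Of 18 tested scaffold genes of the junction 5 were higher in CCD and 2 in cTAL, led by the adhesion molecule F11r (2.63 ± 0.22) and the scaffold Tjp3 (2.40 ± 0.48) in CCD and by Cgnl1 (-1.86 ± 0.23) and Ocln (-1.56 ± 0.28) in cTAL.

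Keratins, the intermediate filaments of epithelia, were higher in CCD for 5 of 7 tested genes and in cTAL for none, with a median of 1.85. Krt18 lay at 469.6 to 659 TPM (median 569) in CCD and 0.16 to 55.1 TPM (median 20.1) in cTAL (5.18 ± 0.46, adjusted p = 7.90e-09). Its partner Krt8 lay at 201 to 309 TPM (median 268) in CCD and 27.6 to 131 TPM (median 81.6) in cTAL (1.85 ± 0.21, adjusted p = 3.69e-07), and Krt7 at 506 to 909 TPM (median 741) and 242 to 482 TPM (median 303) (1.12 ± 0.14). Krt23 (6.60 ± 0.25) and Krt80 (4.92 ± 0.49) were close to 0 in cTAL. All 5 were separated, and the limb kept Krt7 and Krt8 at over 20 TPM in every tubule.

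Matrix and adhesion genes followed with 11 of 24 basement membrane genes higher in CCD and 3 in cTAL. Of 13 genes of integrins and integrin-binding proteins 3 were called in each direction. Npnt, nephronectin, a ligand of integrin alpha 8 in kidney development, lay at 199 to 1106 TPM (median 488) in CCD and 0.19 to 2.04 TPM (median 0.6) in cTAL (8.20 ± 0.28, adjusted p = 3.59e-16). Col18a1 lay at 113 to 480.3 TPM (median 243) in CCD and 11.9 to 78.7 TPM (median 29.4) in cTAL (2.90 ± 0.31). Tinag, an antigen of tubular basement membrane, lay at 54.9 to 119 TPM (median 102) in cTAL and 0 to 32.3 TPM (median 11.5) in CCD (-3.37 ± 0.58, adjusted p = 1.21e-04). Among integrins, Itgb6 was the one separated towards cTAL, at 111 to 317 TPM (median 211) against 0.33 to 57.2 TPM (median 25.1) in CCD (-3.33 ± 0.52), while Itga2b (4.85 ± 0.39) and Itgb4 (3.42 ± 0.44) were separated towards CCD.

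Cell contacts and caveolae added larger differences. Gjb1 (connexin 32), which joins cells through gap junctions, lay at 31.8 to 80.2 TPM (median 55.8) in CCD and 0 to 10.8 TPM (median 3.92) in cTAL (3.98 ± 0.45). Cdhr5, a cadherin of microvilli, lay at 47 to 216 TPM (median 116) in cTAL and 0.24 to 26.2 TPM (median 3.81) in CCD (-4.71 ± 0.53), and Cdh6 at 6.52 to 34.8 TPM (median 23.3) and 0 to 5.73 TPM (median 1.26) (-3.29 ± 0.49). Cdh16, the kidney cadherin, was over 1000 TPM in every tubule and separated towards CCD (1.04 ± 0.13). Cav1 and Cav2, the caveolins, were named after their values were seen: they lay at 348 to 673 TPM (median 541) and 277 to 1015 TPM (median 657) in CCD and at 0.27 to 4.2 TPM (median 0.815) and 0.19 to 3.63 TPM (median 0.835) in cTAL (7.93 ± 0.26 and 8.12 ± 0.30).

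Among 254 tested solute carriers 39 were higher in CCD and 29 in cTAL, with a median of 0.30 beside 0.31 for all genes, and under quantile normalization 30 were higher in CCD and 44 in cTAL. Slc5a1, a sodium and glucose cotransporter, lay at 167 to 341 TPM (median 269.6) in cTAL and 0.04 to 9.36 TPM (median 0.3) in CCD (-7.17 ± 0.42, adjusted p = 5.51e-12). Slc22a4, a carrier of the antioxidant ergothioneine, lay at 52.7 to 138 TPM (median 79.3) in cTAL and 0.03 to 9.4 TPM (median 0.41) in CCD (-5.50 ± 0.45). Slc44a3, of the choline transporter family, lay at 150.1 to 372 TPM (median 211) in CCD and 0.3 to 13.7 TPM (median 8.06) in cTAL (5.42 ± 0.47). Another 3 were picked out after their values were seen: Slc34a2, a phosphate cotransporter, at 13.4 to 63.9 TPM (median 18.6) in cTAL and 0 to 0.6 TPM (median 0.02) in CCD; Slc4a11, of the bicarbonate transporter family, at 20.7 to 122 TPM (median 35.4) and 0 to 1.43 TPM (median 0.1); and Slc52a3, a riboflavin carrier, at 11.2 to 87.4 TPM (median 56) in CCD and 0 to 3.67 TPM (median 0.045) in cTAL. All 6 were separated.

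Carriers of organic osmolytes, which protect cells from salt, went opposite ways. Slc5a3, the inositol carrier, lay at 46.5 to 230.5 TPM (median 110.0) in cTAL and 5.09 to 14.3 TPM (median 7.11) in CCD (-3.49 ± 0.30, adjusted p = 5.55e-09). Slc6a6, the taurine carrier, lay at 16.9 to 109 TPM (median 49.7) in CCD and 0.01 to 9.84 TPM (median 1.44) in cTAL (4.10 ± 0.48, adjusted p = 6.86e-07). Both were separated, and they were the called members of 9 tested osmolyte and urea genes. Of 30 genes of the ATP-binding cassette family, not all of them transporters, 2 were called in each direction, of which Abca13 (-4.19 ± 0.33) was separated towards cTAL.

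Hormone receptors gave each segment its own set. Of 17 tested peptide and amine receptors coupled to G proteins 6 were higher in CCD and 4 in cTAL, and of 21 receptors for lipids, nucleotides and metabolites 9 were higher in CCD and 1 in cTAL. Avpr2, the vasopressin receptor that raises cAMP, lay at 809 to 1792 TPM (median 1201) in CCD and at 9.47 to 144 TPM (median 59.8) in cTAL (4.59 ± 0.35, adjusted p = 6.24e-10). Avpr1a, the vasopressin receptor that couples to calcium, lay at 95.5 to 229 TPM (median 154) in CCD and at 0 to 0.3 TPM (median 0.12) in cTAL (7.11 ± 0.26, adjusted p = 7.46e-16). Both were separated, and Avpr2 was measurable in every cTAL tubule whereas Avpr1a stayed under 1 TPM there. In the single cells the mean of Avpr2 was 667 TPM in principal cells and 6.29 TPM in those of type A, whereas the mean of Avpr1a was 3.09 TPM in principal cells, 89.1 TPM in those of type A and 77.9 TPM in those of type B.

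Adrenergic and glucagon receptors also differed. Adrb1, the beta 1 receptor, was low and higher in cTAL, at 1.36 to 14.3 TPM (median 6.08) against 0.02 to 4.22 TPM (median 1.48) in CCD (-1.73 ± 0.40, adjusted p = 0.00295). Gcgr, the glucagon receptor, lay at 353 to 557 TPM (median 452) in cTAL and 60.1 to 135 TPM (median 80.3) in CCD (-2.44 ± 0.15, adjusted p = 9.64e-12). Gcgr was separated, and stayed above 60 TPM in every CCD tubule. The CCD also had Ednrb, the endothelin B receptor (3.54 ± 0.43), and Adra2a, the alpha 2A receptor (3.49 ± 0.47), the latter named after its values were seen.

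Receptors for prostaglandin E2 split by subtype. Ptger3 (EP3), which lowers cAMP, lay at 276 to 844 TPM (median 567) in cTAL and 6.9 to 36.9 TPM (median 24.8) in CCD (-4.65 ± 0.30, adjusted p = 3.03e-11). Ptger1 (EP1), which couples to calcium, lay at 34.4 to 184 TPM (median 91.8) in CCD and 0.69 to 34.1 TPM (median 6.08) in cTAL (3.66 ± 0.41, adjusted p = 3.89e-07). Every cTAL tubule was above every CCD tubule for Ptger3 and the reverse held for Ptger1. Among the enzymes that make the ligand, Ptgs1 (cyclooxygenase 1) lay at 106 to 384 TPM (median 177) in CCD and 0.09 to 9.7 TPM (median 1.08) in cTAL (6.01 ± 0.46), and Ptges (prostaglandin E synthase) at 165 to 358 TPM (median 227) and 0.08 to 2.05 TPM (median 0.34) (7.47 ± 0.25). The other synthases of this prostaglandin, Ptges2 (-0.39 ± 0.26, adjusted p = 0.339) and Ptges3 (0.76 ± 0.35, adjusted p = 0.141), were not called. Tbxas1, thromboxane synthase, lay at 28.7 to 72.2 TPM (median 51) in cTAL and 0.01 to 13.6 TPM (median 0.59) in CCD (-4.39 ± 0.49), and Ptgds, a prostaglandin D synthase, was also higher in cTAL (-3.75 ± 0.79), with 1 cTAL tubule, m2_cTAL1, listed at 0. In all, 7 of 18 tested genes of this pathway were higher in CCD and 3 in cTAL.

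Metabolite, estrogen and nucleotide receptors were mainly on the CCD side. Oxgr1, the receptor for 2-oxoglutarate, lay at 27.7 to 296 TPM (median 94.2) in CCD and 0.07 to 17.7 TPM (median 5.46) in cTAL (4.50 ± 0.59), and Gper1, a membrane estrogen receptor, at 24.4 to 57.4 TPM (median 36.5) and 0 to 0.04 TPM (median 0.025) (5.15 ± 0.29). P2ry14, the receptor for sugar nucleotides, (4.45 ± 0.63) and Adora1, the adenosine A1 receptor, (3.74 ± 0.57) were higher in CCD and overlapped with cTAL through m2_CCD2 alone. P2rx5, an ATP-gated channel, was the exception, at 16.5 to 70.2 TPM (median 34.8) in cTAL and 0 to 1.55 TPM (median 0.05) in CCD (-4.84 ± 0.36, adjusted p = 3.64e-10). Adgrf5, an adhesion receptor, was separated towards CCD (4.35 ± 0.42), one of 8 adhesion and orphan receptors of 33 tested that were higher there, with 2 higher in cTAL.

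**Figure D2:**
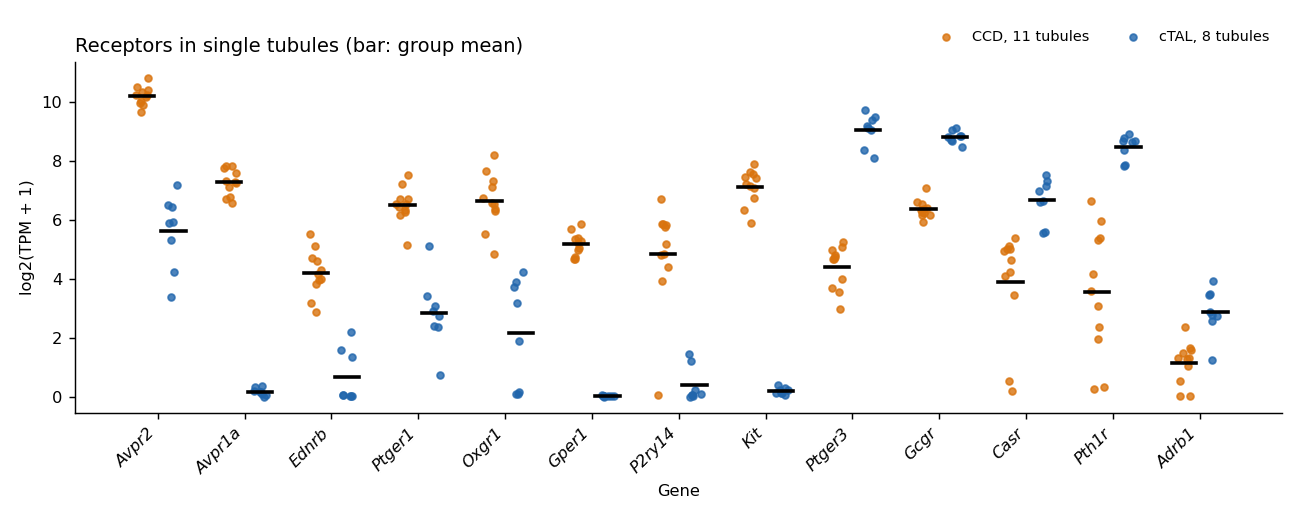
Level of 13 receptors in each tubule as log2(TPM + 1) on the vertical axis, CCD in orange and cTAL in blue, with a bar at each group's mean. The first 8 receptors are higher in CCD, with every CCD tubule above every cTAL tubule except for P2ry14, and the last 5 are higher in cTAL with Adrb1 the one that overlaps.

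Of 32 tested kinase receptors 6 were higher in CCD and 3 in cTAL, or 4 and 6 under quantile normalization. Kit, the stem cell factor receptor and a known marker of type A cells, lay at 58 to 238 TPM (median 149) in CCD and 0.04 to 0.33 TPM (median 0.135) in cTAL (6.92 ± 0.29), and Ephb6, an ephrin receptor, at 2.71 to 37.6 TPM (median 26.5) and 0 to 0.2 TPM (median 0.015) (4.07 ± 0.46). Ephb6 and the calcium channel Trpv6 end next to each other on opposite strands of chromosome 6, at 41620509 and 41620624. Whether Ephb6 and Trpv6 share reads was not tested. Erbb4 was higher in cTAL at 0.01 to 30.4 TPM (median 15.1) against 0.01 to 5.71 TPM (median 1.37) in CCD (-2.34 ± 0.59, adjusted p = 0.00613), with 2 cTAL tubules, m3_cTAL1 and m6_cTAL1, within the CCD range. The insulin receptor Insr (0.10 ± 0.27, adjusted p = 0.834) and Met, the receptor for hepatocyte growth factor (0.32 ± 0.38, adjusted p = 0.623), were at similar levels and not called.

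Of 5 tested ligands of the epidermal growth factor family 3 were called. Egf itself lay at 5465 to 11352 TPM (median 8454) in cTAL and 6.09 to 67.2 TPM (median 24.6) in CCD (-8.46 ± 0.36, adjusted p = 1.63e-14). Btc, betacellulin, lay at 40.6 to 209.7 TPM (median 74.7) in CCD and 0.09 to 8.53 TPM (median 3.69) in cTAL (4.69 ± 0.47, adjusted p = 4.94e-08), and Tgfa at 0 to 41.3 TPM (median 8.67) and 0 to 0.03 TPM (median 0.005) (3.11 ± 0.48). Egf and Btc were separated in opposite directions, and Tgfa was under 0.1 TPM in every cTAL tubule and listed at 0 in 1 CCD tubule.

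Kallikrein and kininogen, the enzyme and the substrate that yield kinins, were both on the cTAL side. Klk1, tissue kallikrein, lay at 3526 to 13154 TPM (median 9277) in cTAL and 79 to 582 TPM (median 223) in CCD (-5.60 ± 0.37, adjusted p = 4.25e-11). Kng2, kininogen 2, lay at 2346 to 3681 TPM (median 3329) in cTAL and 3.06 to 189.9 TPM (median 88.2) in CCD (-5.56 ± 0.46, adjusted p = 2.85e-09), and Kng1 was low but also higher in cTAL (-3.05 ± 0.46). Both Klk1 and Kng2 were separated. Klk1 is usually placed in the connecting tubule, and the other markers of the distal convoluted and connecting tubule went both ways. Calb1 had a median of 0.62 TPM in cTAL and was called higher in CCD, and Slc12a3, the thiazide-sensitive cotransporter of the distal convoluted tubule, lay at 0 to 2.05 TPM (median 0.105) in cTAL and was not called. Wnk4 lay at 237 to 448 TPM (median 344) in cTAL and 47.2 to 108 TPM (median 70.3) in CCD and was called higher in cTAL. Klk1 has many close relatives in the mouse, so part of its reads may be theirs. In the single cells the mean of Klk1 was 14340.0 TPM in type B, 2318 TPM in type A and 147 TPM in principal cells. The medians were far lower, at 914 TPM in type B, 207 TPM in type A and 5.00 TPM in principal cells.

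Other local hormones were on the CCD side. Guca2a, guanylin, which acts on salt transport through cyclic GMP, lay at 85.4 to 626 TPM (median 386) in CCD and 0.09 to 3.03 TPM (median 0.675) in cTAL (7.70 ± 0.35, adjusted p = 4.87e-14). Edn3, endothelin 3, lay at 14.3 to 98.9 TPM (median 54.9) in CCD and 0 to 0.11 TPM (median 0.045) in cTAL (5.68 ± 0.34, adjusted p = 5.83e-12). Both were separated, and in single cells both were highest in type A cells, at means of 1932 TPM and 145 TPM.

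Inside the cell, the enzymes that handle cAMP differed by isoform, with 11 of 41 tested genes higher in CCD and 4 in cTAL. Pde8b lay at 30.8 to 132 TPM (median 53.2) in CCD and 0.02 to 5.9 TPM (median 1.15) in cTAL (4.58 ± 0.41), and Pde3b at 5.41 to 37.9 TPM (median 23.9) and 0.01 to 1.79 TPM (median 0.045) (4.16 ± 0.40); both degrade cAMP. Adcy1, a cyclase that calcium activates, was low but separated towards cTAL at 4.7 to 13.7 TPM (median 11) against 0 to 1.91 TPM (median 0.01) (-3.03 ± 0.32). The phosphodiesterases higher in cTAL were Pde4c (-2.14 ± 0.58), Pde1a (-1.31 ± 0.28) and Pde1b (-2.21 ± 0.37), and Pde1a and Pde1b form a pair that calcium and calmodulin activate. Pde1b and Ppp1r1a, abundant in cTAL, end next to each other on opposite strands of chromosome 15, at 103530052 and 103530279. Whether reads of Ppp1r1a were counted for Pde1b was not tested. Adcy6, the cyclase that serves vasopressin in the duct, lay at 7.31 to 22.2 TPM (median 14.2) in CCD and 4.81 to 17.3 TPM (median 9.36) in cTAL and was not called (adjusted p = 0.344).

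Of 31 tested genes of phospholipase, calcium store and protein kinase C signalling 15 were higher in CCD and 1 in cTAL, with a median of 0.54. Plcg2, a phospholipase C, lay at 0.99 to 200.0 TPM (median 126) in CCD and 0.03 to 6.67 TPM (median 1.19) in cTAL (5.20 ± 0.70), and Plcd3, another, at 28.2 to 127 TPM (median 70) and 0 to 5.12 TPM (median 0.26) (5.15 ± 0.44). Prkch, a protein kinase C, (3.76 ± 0.41) and Stim1, the sensor of calcium stores, (3.54 ± 0.45) were separated towards CCD. Plcb1 was the gene higher in cTAL, at 8.78 to 40.8 TPM (median 25) against 0.05 to 4.77 TPM (median 2.24) in CCD (-3.01 ± 0.42, adjusted p = 9.67e-06).

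Developmental pathways still told the segments apart. In the Notch pathway, which sets the balance of principal and intercalated cells in the duct, 7 of 20 tested genes were higher in CCD and none in cTAL, with a median of 0.60. Dll1, a ligand, lay at 15.2 to 67.5 TPM (median 46) in CCD and 0.01 to 1.7 TPM (median 0.08) in cTAL (5.12 ± 0.33, adjusted p = 3.28e-11). The targets Nrarp and Heyl lay at 3.19 to 81.2 TPM (median 21.8) and 4.29 to 21.3 TPM (median 9.3) in CCD and at 0 to 2.52 TPM (median 0.015) and 0 to 0.69 TPM (median 0.015) in cTAL. These 3 genes were separated, and a second ligand, Dll4, overlapped through 2 CCD tubules (2.53 ± 0.61).

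Wnt and bone morphogenetic protein (BMP) genes were called in both directions, 6 and 4 of 21 for the Wnt list and 10 and 4 of 33 for the TGF-beta and BMP list (CCD and cTAL). Wnt9b and Wnt4 were on the CCD side at 0.37 to 29.1 TPM (median 14.1) and 4.18 to 29.5 TPM (median 7.82), against 0 to 0.03 TPM (median 0.01) and 0 to 0.95 TPM (median 0.025) in cTAL (3.52 ± 0.44 and 3.13 ± 0.37). Wnt5a (-3.07 ± 0.36) and the Wnt inhibitor Sfrp1, at 39.6 to 226 TPM (median 86.8) in cTAL and 0.05 to 8.82 TPM (median 0.44) in CCD (-5.74 ± 0.43), were on the cTAL side. Fzd1, a Wnt receptor, lay at 15.2 to 82 TPM (median 40.2) in CCD and 0.02 to 6.83 TPM (median 0.615) in cTAL (4.28 ± 0.44). The ligands Wnt4 and Wnt9b and the receptor Fzd1 were all under 10 TPM in every cTAL tubule.

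BMP ligands went both ways. Bmp4 lay at 29.6 to 141 TPM (median 91) in cTAL and 0 to 3.78 TPM (median 0.33) in CCD (-5.67 ± 0.39, adjusted p = 8.88e-11). Bmp8a, another ligand, lay at 0.25 to 29.8 TPM (median 19.5) in CCD and 0 to 0.06 TPM (median 0) in cTAL (4.01 ± 0.49, adjusted p = 1.33e-06), and Bmp7 was not called (0.32 ± 0.23, adjusted p = 0.394). Bmpr1b, a type I receptor, lay at 11.1 to 49.9 TPM (median 38.5) in CCD and 0 to 0.06 TPM (median 0.02) in cTAL (4.96 ± 0.35, adjusted p = 1.30e-10). Sostdc1, a secreted antagonist of BMP and Wnt, lay at 979 to 1589.8 TPM (median 1350.1) in cTAL and 90 to 269 TPM (median 153) in CCD (-3.12 ± 0.17, adjusted p = 1.63e-12). Bmp4, Bmp8a, Bmpr1b and Sostdc1 were separated. Gdf15, a stress hormone of this family, was separated towards CCD (3.51 ± 0.51), and Fstl3, an activin antagonist, towards cTAL (-3.38 ± 0.44).

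Of 19 tested genes of fibroblast growth factors, their receptors and related proteins 3 were called in each direction. Fgf1 lay at 14.4 to 176 TPM (median 85.3) in cTAL and 0.05 to 14.5 TPM (median 2.87) in CCD (-4.29 ± 0.60), and Fgf9 at 106 to 226 TPM (median 137) and 21.7 to 75.2 TPM (median 41.3) (-1.79 ± 0.23). Fgf18 lay at 0 to 38.4 TPM (median 7.16) in CCD and 0 to 0.03 TPM (median 0) in cTAL (2.88 ± 0.52). Fgf9 was separated, while 1 CCD tubule reached the lowest cTAL level of Fgf1 and another was listed at 0 for Fgf18.

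Transcription factors carried some of the cleanest differences. Of 34 tested factors of the collecting duct list 17 were higher in CCD and 3 in cTAL, with a median of 1.15. Gata2 lay at 118 to 204 TPM (median 152) in CCD and 0.02 to 1.11 TPM (median 0.19) in cTAL (6.90 ± 0.24, adjusted p = 3.36e-16), and Gata3, needed for growth of the duct in the embryo, at 55.5 to 101 TPM (median 75.3) and 0.01 to 0.62 TPM (median 0.07) (5.99 ± 0.26). Foxi1, the master factor of intercalated cells, lay at 345 to 935 TPM (median 646) in CCD and 0.13 to 0.8 TPM (median 0.47) in cTAL (8.78 ± 0.23, adjusted p = 1.29e-18), and Dmrt2, another intercalated cell factor, at 30.8 to 106 TPM (median 69.1) and 0 to 0.15 TPM (median 0.055) (6.00 ± 0.29). These 4 were at or near 0 in the limb. Tbx2, a T-box factor from the list of nephron factors, lay at 53.1 to 106 TPM (median 86.2) in CCD and 0.01 to 3.38 TPM (median 0.055) in cTAL (5.89 ± 0.33).

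The limb had its own factors. Of 32 tested genes in the list of thick limb and nephron factors 10 were higher in cTAL and 5 in CCD. Sim2 lay at 20.2 to 65.9 TPM (median 39.8) in cTAL and 0 to 0.29 TPM (median 0.04) in CCD (-5.23 ± 0.30, adjusted p = 2.90e-12). Irx2 lay at 26.1 to 97 TPM (median 48.2) in cTAL and 0 to 1.52 TPM (median 0.11) in CCD (-5.26 ± 0.34, adjusted p = 3.29e-11), and the related Irx1 and Irx3, factors that pattern the middle nephron, differed by -2.85 ± 0.26 and -2.92 ± 0.35. Sim1, the relative of Sim2, lay at 1.25 to 10.2 TPM (median 5.89) in CCD and 0.28 to 14.3 TPM (median 6.42) in cTAL and was not called (adjusted p = 0.947). Sim2 and the 3 Irx genes were separated.

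Nuclear receptors were called higher in CCD for 6 of 36 and in cTAL for 8. Nr1h4, the bile acid receptor FXR, lay at 39 to 139 TPM (median 84.2) in cTAL and 0 to 19.3 TPM (median 0.91) in CCD (-4.93 ± 0.57, adjusted p = 5.09e-07). Esrrb, an estrogen-related receptor, lay at 2.12 to 46.1 TPM (median 21.3) in cTAL and 0.01 to 0.68 TPM (median 0.03) in CCD (-4.10 ± 0.40, adjusted p = 3.73e-08), while its relatives Esrrg (0.13 ± 0.45) and Esrra (0.03 ± 0.35) were not called, with adjusted p of 0.882 and 0.963. Nr2f2 (COUP-TFII) lay at 25 to 73.1 TPM (median 61.2) in cTAL and 0.94 to 12 TPM (median 6.09) in CCD (-3.03 ± 0.35). The 3 called receptors were separated, and Esrrb was under 1 TPM in every CCD tubule.

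Hox genes, which keep the body position of a cell's origin, were called in both directions: 6 of 22 higher in CCD and 9 in cTAL. Within the B cluster Hoxb9, at 42.9 to 118 TPM (median 61.8) in CCD and 0.02 to 20.8 TPM (median 6.34) in cTAL (3.91 ± 0.58), and Hoxb2 (1.55 ± 0.44) were higher in CCD. Within the A and C clusters Hoxa7, at 26.8 to 68.8 TPM (median 43.8) in cTAL and 0 to 4.08 TPM (median 0.7) in CCD (-4.33 ± 0.42), Hoxa9 (-2.73 ± 0.52) and Hoxc10, at 4.78 to 30.2 TPM (median 15.2) and 0 to 0.53 TPM (median 0.04) (-3.77 ± 0.34), were higher in cTAL. The D cluster held both: Hoxd3 (3.24 ± 0.46) and Hoxd4 (2.04 ± 0.40) were higher in CCD, and Hoxd10, at 9.88 to 97.8 TPM (median 55.3) in cTAL and 0 to 8.14 TPM (median 2.12) in CCD (-4.18 ± 0.53), in cTAL. As annotated, Hoxd4 lies within Hoxd3 on the same strand, so Hoxd3 and Hoxd4 may share reads. All 4 called members of the B cluster were higher in CCD, and all 8 called members of the A and C clusters were higher in cTAL.

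**Figure D3:**
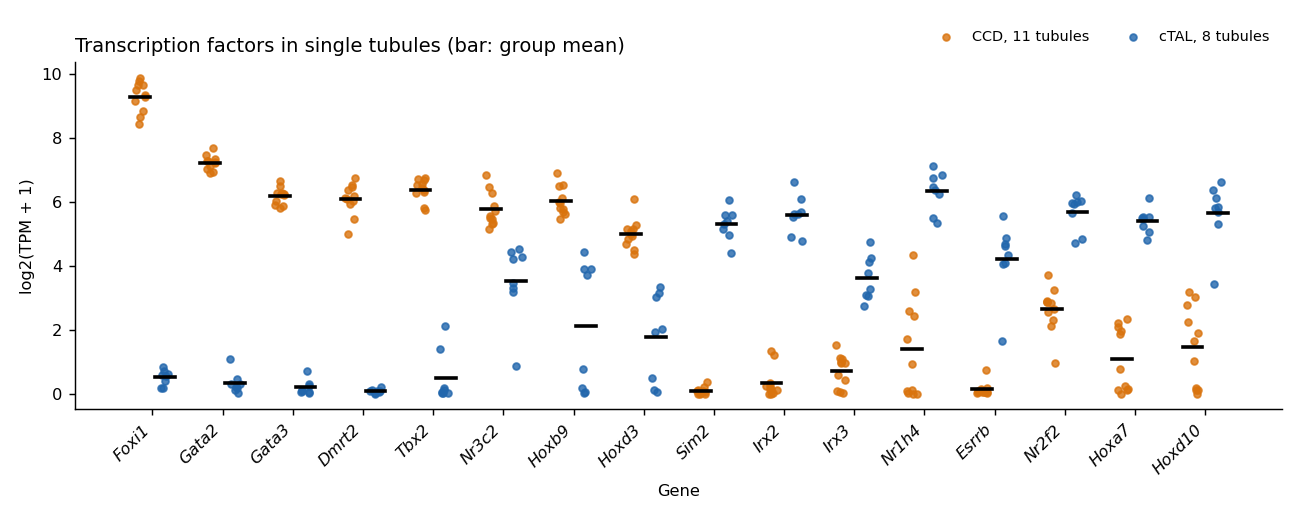
Level of 16 transcription factors in each tubule as log2(TPM + 1) on the vertical axis, CCD in orange and cTAL in blue, with a bar at each group's mean. The 8 on the left, from Foxi1 to Hoxd3, are higher in CCD and the 8 on the right, from Sim2 to Hoxd10, are higher in cTAL, and none of the 16 overlaps between the groups.

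Short DNA words that such factors read were then counted in the windows from 250 bases before to 50 bases after the start of each gene, from RefSeq on GRCm38.p6. A window was found for 9743 of the 13520 tested genes. The GATA word AGATAAG, on either strand, was in a window of 5.88% of the separated CCD genes (18 of 306 with a window), 2.31% of the separated cTAL genes and 2.21% of all. The word AAGGTCA, which estrogen-related receptors read, was in 7.51% of the separated cTAL genes (13 of 173 with a window), 3.92% of the separated CCD genes and 4.05% of all. The forkhead word TGTTTAC was in 4.25%, 4.05% and 3.16% of CCD, cTAL and all genes. The GATA and the receptor word can share letters, since one ends and the other begins with AAG. These words and the promoters below were chosen after values were seen, no test was made, and a match is a run of letters and no evidence that a factor binds it.

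To show what such a window looks like, 2 windows of genes separated towards CCD with a GATA word and 2 of genes separated towards cTAL with the receptor word follow, 5′ to 3′ on the strand of the gene, with the word in capitals (CTTATCT and TGACCTT are the words read on the other strand). The windows lie at chr15:99578806-99579105 for Aqp2 (plus strand), chr15:102004293-102004592 for Krt8 (minus strand), chr3:153944594-153944893 for Acadm (minus strand) and chr16:37654319-37654618 for Ndufb4 (minus strand).
Aqp2: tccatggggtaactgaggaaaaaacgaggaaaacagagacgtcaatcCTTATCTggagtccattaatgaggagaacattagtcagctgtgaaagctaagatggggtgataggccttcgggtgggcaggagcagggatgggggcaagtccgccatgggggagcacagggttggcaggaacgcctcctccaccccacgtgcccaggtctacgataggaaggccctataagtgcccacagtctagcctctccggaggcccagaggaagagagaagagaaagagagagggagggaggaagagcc
Krt8: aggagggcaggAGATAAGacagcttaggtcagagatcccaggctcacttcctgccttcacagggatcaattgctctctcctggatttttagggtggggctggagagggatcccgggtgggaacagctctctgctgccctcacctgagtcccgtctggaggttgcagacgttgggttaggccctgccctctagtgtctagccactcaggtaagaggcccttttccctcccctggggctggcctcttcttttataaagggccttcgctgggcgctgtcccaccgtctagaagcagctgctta
Acadm: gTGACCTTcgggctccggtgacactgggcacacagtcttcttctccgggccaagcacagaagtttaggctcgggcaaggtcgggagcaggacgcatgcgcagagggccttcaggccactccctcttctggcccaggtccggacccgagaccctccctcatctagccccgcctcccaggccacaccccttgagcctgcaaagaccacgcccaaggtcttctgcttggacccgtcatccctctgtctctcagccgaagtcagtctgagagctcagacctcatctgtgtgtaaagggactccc
Ndufb4: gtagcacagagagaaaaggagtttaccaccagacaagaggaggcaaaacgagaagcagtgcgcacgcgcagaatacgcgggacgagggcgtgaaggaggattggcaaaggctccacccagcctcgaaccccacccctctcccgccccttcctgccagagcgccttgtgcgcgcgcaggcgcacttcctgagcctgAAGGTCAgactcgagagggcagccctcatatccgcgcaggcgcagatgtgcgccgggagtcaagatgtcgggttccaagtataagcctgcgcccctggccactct

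In Aqp2 the word starts 203 bases before the gene's start and in Krt8 239 bases before it. In Acadm, an enzyme of fatty acid oxidation, it starts 249 bases before the start, and in Ndufb4, a subunit of respiratory complex I, 55 bases before it. Acadm lay at 374 to 609 TPM (median 515) in cTAL and 155 to 334 TPM (median 229.9) in CCD (-1.10 ± 0.16), and Ndufb4 at 191 to 424 TPM (median 235) and 97.5 to 163 TPM (median 114) (-1.02 ± 0.16). Both genes are part of the metabolic difference described next.

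Energy genes were higher in cTAL, by small and regular amounts. Of 80 tested nuclear genes of oxidative phosphorylation 43 were higher in cTAL and 1 in CCD, with a median of -0.40, and all 7 tested mitochondrially encoded genes were higher in cTAL, with a median of -1.18. Summed, the nuclear genes came to 83099 to 155850 TPM in CCD (median 115380) and 135640 to 176570 TPM in cTAL (median 149470). The mitochondrial gene mt-Co1 lay at 10100.0 to 16838 TPM (median 12501) in cTAL and 4403 to 7316 TPM (median 5121) in CCD (-1.18 ± 0.10, adjusted p = 3.47e-09). The 1 gene that went the other way was Cox7a1, a form of a cytochrome oxidase subunit known from muscle, at 651 to 1476 TPM (median 897) in CCD and 178 to 421 TPM (median 214) in cTAL (2.05 ± 0.17, adjusted p = 4.09e-09).

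Of 27 citric acid cycle genes 14 were higher in cTAL and 1 in CCD, with a median of -0.57, and of 33 fatty acid oxidation genes 16 were higher in cTAL and none in CCD, with a median of -0.53. Fabp3, the heart-type fatty acid binding protein, lay at 652 to 1195 TPM (median 860.5) in cTAL and 2.86 to 33.6 TPM (median 19.3) in CCD (-5.57 ± 0.33, adjusted p = 6.01e-12). Cpt1b, the muscle form of the enzyme that admits fatty acids to mitochondria, lay at 169 to 278 TPM (median 209.6) in cTAL and 0 to 18.3 TPM (median 8.31) in CCD (-4.92 ± 0.44, adjusted p = 8.27e-09), while the liver form Cpt1a was over 60 TPM in every tubule and overlapped (-1.13 ± 0.24). Acsl1 (-2.77 ± 0.33) and Acadvl (-1.25 ± 0.14), which activate and oxidise long chains, and Idh2 (-1.04 ± 0.09) and Suclg1 (-1.13 ± 0.12) of the cycle were also separated. Fabp3 and Cpt1b differed by far more than these enzymes did.

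Energy buffers changed isoform. Ckb, the cytosolic creatine kinase, lay at 1641 to 3659 TPM (median 2551) in cTAL and 150.2 to 343 TPM (median 218) in CCD (-3.57 ± 0.17, adjusted p = 1.15e-13). Ckmt1, the mitochondrial creatine kinase, lay at 1009.5 to 1780.5 TPM (median 1461) in CCD and 199.9 to 619.5 TPM (median 459.7) in cTAL (1.74 ± 0.16, adjusted p = 1.43e-08). The 2 kinases were separated in opposite directions. Bdh1, which interconverts ketone bodies, was separated towards cTAL (-2.75 ± 0.51).

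Glycolysis was called mostly towards CCD. Of 28 tested genes 10 were higher in CCD and 1 in cTAL, with a median of 0.19 beside 0.31 for all genes, or -0.01 under median-of-ratios scaling. Ldha, the lactate dehydrogenase subunit that favours lactate, lay at 1271 to 1975 TPM (median 1646) in CCD and 409.7 to 587 TPM (median 484) in cTAL (1.67 ± 0.10, adjusted p = 1.67e-11). Pfkfb3, which makes the main activator of glycolysis, lay at 19.9 to 101 TPM (median 34.4) in CCD and 0.01 to 9.31 TPM (median 1.12) in cTAL (3.96 ± 0.45), and Slc2a1, the glucose carrier GLUT1, at 263 to 611 TPM (median 359) and 91.9 to 296 TPM (median 118) (1.51 ± 0.19). Pdk4, which keeps pyruvate out of the cycle when fat is burnt, was the gene higher in cTAL (-2.28 ± 0.49), and Pkm was not called (0.06 ± 0.11, adjusted p = 0.778). Ldha and Pfkfb3 were separated. Lipid synthesis genes were mostly not called (3 of 26 higher in CCD, 2 in cTAL); Scd2, a fatty acid desaturase, was at 101 to 366 TPM (median 284) in CCD and 0.43 to 44.1 TPM (median 13.7) in cTAL (4.52 ± 0.56), and Gal3st1, which makes sulfatides, was separated towards cTAL (-1.71 ± 0.17). Adh1, an alcohol and retinol dehydrogenase chosen after its values were seen, lay at 1658 to 3627 TPM (median 2298) in CCD and 0.63 to 85.2 TPM (median 5.34) in cTAL (8.25 ± 0.53).

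**Figure D4:**
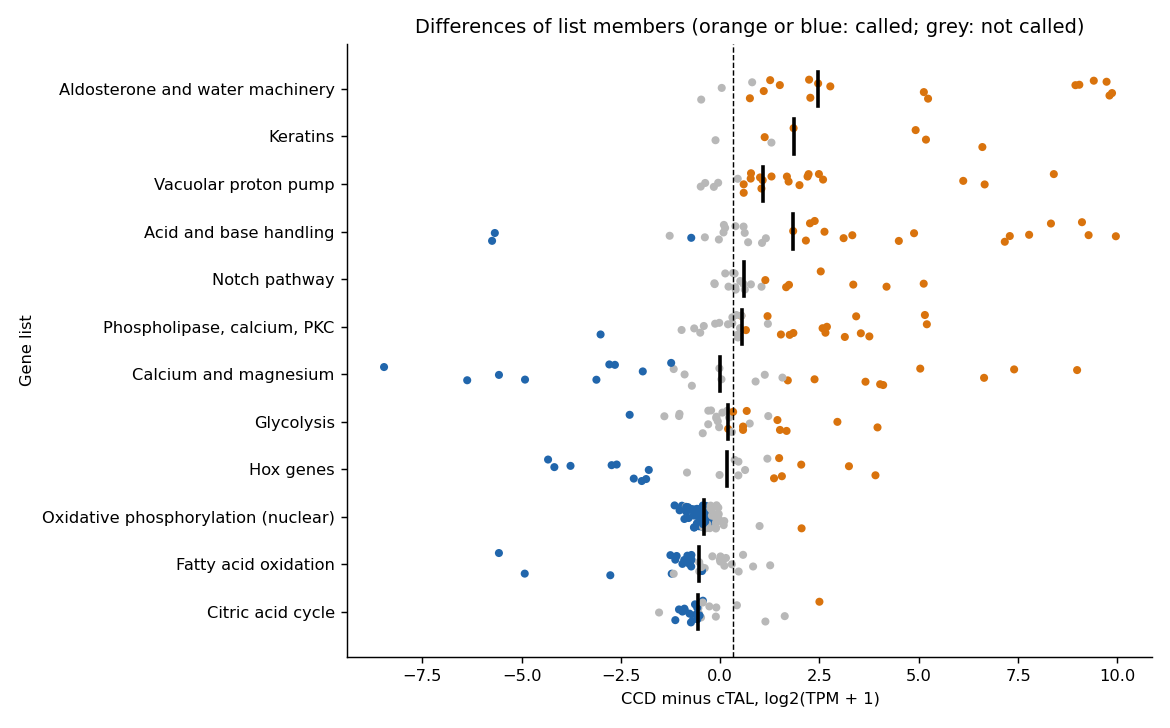
Differences (CCD minus cTAL, log2 scale, horizontal axis) of all tested members of 12 gene lists, 1 point per gene, coloured orange where called higher in CCD, blue where called higher in cTAL and grey where not called; the black tick is the list's median and the dashed line the median of all tested genes. The medians of oxidative phosphorylation (-0.40), the citric acid cycle (-0.57) and fatty acid oxidation (-0.53) lie left of the dashed line at 0.31, and those of the proton pump (1.07), keratins (1.85) and the aldosterone and water machinery (2.47) to its right.

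Secreted and defence proteins were called 10 of 30 in each direction. In cTAL, besides Umod at 29949 to 48119 TPM (median 41806) against 29 to 629 TPM (median 185) in CCD, Wfdc15b, a protein of the whey acidic family, lay at 11596 to 16030.0 TPM (median 13266) in cTAL and 370.4 to 893 TPM (median 557) in CCD (-4.65 ± 0.13, adjusted p = 9.05e-18), and Spp1, osteopontin, at 4066 to 6319 TPM (median 5822) and 311 to 1150.2 TPM (median 583) (-3.18 ± 0.18). In CCD, Defb1, a defensin, lay at 1683 to 2857 TPM (median 1984) against 311 to 727 TPM (median 499) in cTAL (2.12 ± 0.13, adjusted p = 1.11e-11), Clu, clusterin, at 159.8 to 731 TPM (median 401) against 14.2 to 62 TPM (median 30.2) (3.52 ± 0.32), and Muc20, a mucin, at 29.2 to 199 TPM (median 114) against 0 to 0.21 TPM (median 0.105) (6.59 ± 0.33). Ly6a, a surface protein outside the lists, lay at 8488 to 13615 TPM (median 10165) in cTAL and 129.8 to 634 TPM (median 274) in CCD (-5.22 ± 0.21). All 7 were separated, and Wfdc15b, Spp1, Defb1 and Ly6a were picked out after their values were seen.

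Antigen presentation and acute response genes leaned to CCD. Of 11 tested genes of the class I and II pathways 5 were higher in CCD and none in cTAL. H2-D1, a class I heavy chain, lay at 603 to 1040.2 TPM (median 744) in CCD and 187 to 408 TPM (median 288) in cTAL (1.47 ± 0.14, adjusted p = 1.70e-08), and B2m, its light chain, at 280.2 to 647 TPM (median 519) and 78.9 to 390.5 TPM (median 162) (1.58 ± 0.27); H2-D1 has close relatives with which it may share reads. Among cytokine receptors Il1r1, for interleukin 1, was separated towards CCD at 5.63 to 38.3 TPM (median 19) against 0 to 0.85 TPM (median 0.01) (4.08 ± 0.39), and Ackr3, a scavenger of Cxcl12, at 28.8 to 179 TPM (median 98) against 0.03 to 1.67 TPM (median 0.305) (5.96 ± 0.37). Cxcl12 itself lay at 26.1 to 129.7 TPM (median 87.8) in cTAL and 0.25 to 28.6 TPM (median 7.34) in CCD (-3.37 ± 0.49).

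Genes of stress and of the immediate early response to handling were read beside these results, in a list that also holds Lcn2, called higher in CCD. Of 14 tested stress and immediate early genes 7 were higher in CCD and 1 in cTAL, with a median of 1.25, and their summed level was 452 to 1502 TPM in CCD and 224 to 526 TPM in cTAL. Hspa1b, a heat shock protein, lay at 34.8 to 71.3 TPM (median 48.9) in CCD and 7.17 to 21.6 TPM (median 12.5) in cTAL (1.83 ± 0.24), and Egr1 at 4.55 to 164 TPM (median 25) and 0 to 24.5 TPM (median 2.51) (3.00 ± 0.75), while Dusp1 was higher in cTAL (-2.37 ± 0.66). Fos, the usual sign of such a response, lay at 0.02 to 218 TPM (median 8.75) in CCD and 0 to 85.2 TPM (median 8.91) in cTAL and was not called (adjusted p = 0.595). The part of this response in other differences, such as those of Sgk1 and Gdf15, was not tested.

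Several groups showed little. None of 16 tested circadian genes was called, 1 of 24 genes of the primary cilium and its diseases was (higher in CCD), and 5 of 78 ribosomal protein genes were, with a median of 0.003. None of 8 gluconeogenesis genes and none of 7 SOX factors was called. Over all tested genes 18.7% were called, and lists of 8 and 7 genes are too short to be told apart from that share. At an unadjusted limma p under 0.05 there was 1 SOX factor and no circadian or gluconeogenesis gene, and the exact rank-sum test called 1 SOX factor and no gene of the other lists. A gluconeogenesis gene was called with only the tubules that had at least 10000 genes.

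The single cells of the study place the genes separated towards CCD among cell types. Their table was normalized separately, no animal is named for any cell, and so each type is 1 sample and the levels carry no test. Of the 426 genes, 243 (57.0%) had their highest mean in the 74 principal cells, 71 (16.7%) in the 87 type A cells and 112 (26.3%) in the 23 type B cells. Over all tested genes the same shares were 42.4%, 30.2% and 27.4%. Of the 426, 419 reached a mean of 1 TPM in at least 1 of the 3 types, against 189 of the 239 genes separated towards cTAL and 11772 of all 13520 tested genes.

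Named genes from the groups above fell to different cells. Among principal cells were Npnt (196, 11.7 and 7.36 TPM, in the order principal, A, B), Cav1 (561, 37.1 and 24.1 TPM), Ptges (244, 5.72 and 74.1 TPM) and Btc (129.6, 11 and 0.00739 TPM). Adgrf5 had its highest mean in type A cells (11.2, 156 and 1.69 TPM). Hmx2 (0.00487, 1.09 and 218 TPM) and Insrr (0.0338, 10.4 and 146 TPM) were those of type B cells. Trpv4 was shared by principal and type A cells (36.8, 32.3 and 2.24 TPM).

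**Figure D5:**
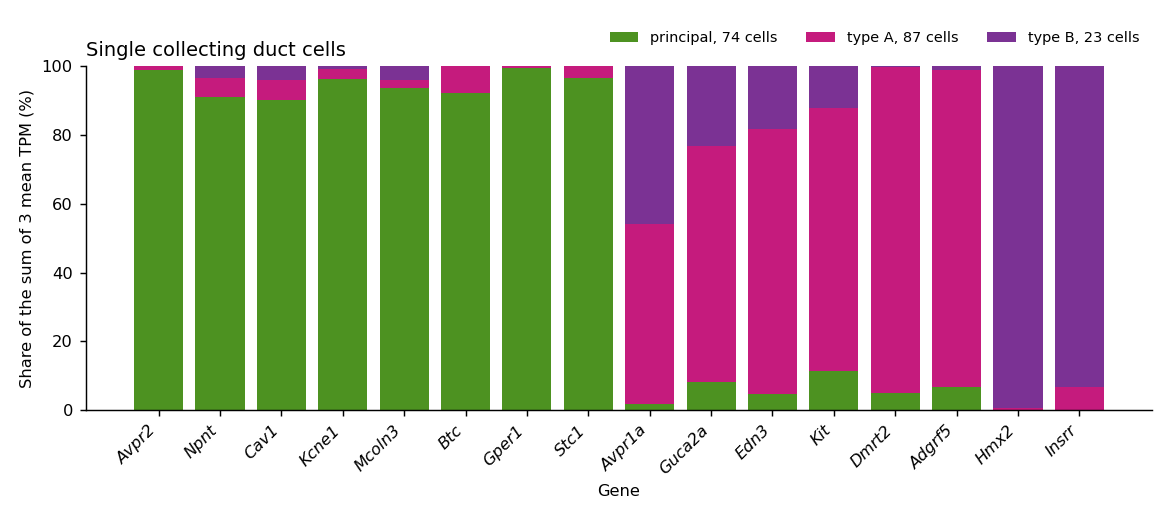
Mean TPM of 16 genes separated towards CCD in the single principal, type A and type B cells, each shown as its share of the sum of the 3 means, so that a full bar is 100%. The genes on the left have most of the sum in principal cells and those on the right in type A or type B cells. Means were taken over 74, 87 and 23 cells with no error between animals, and a mean can come from few of them. Gper1 reached 1 TPM in 4 of the 74 principal cells.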

How the data were processed

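Single tubules were sequenced as polyadenylated RNA, and the authors deposited 1 table of TPM for 11 CCD and 8 cTAL tubules and another for single cells. Per the submitters' processing notes the tools were STAR 2.5.1b, RSEM 1.2.31 and Seurat on GRCm38.p5, with no role given for each. TPM keeps no read depth. From these values log2(TPM + 1) was fitted with limma 3.58.1 (R 4.3.3, trend in the prior variance) for genes that averaged 1 TPM or more, with Benjamini-Hochberg adjustment over all of them; the fit was tested on simulated data. Groups come from the column names, since the columns carry no title number.

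Named genes are all principal, intercalated and thick limb markers, the 15 largest separated differences per direction at 10 TPM or more, up to 4 called members per list and direction at 5 TPM or more, uncalled members at 20 TPM or more, and paralogs called in opposite directions. Outside this rule, chosen after values were seen, are Scnn1a, Tmprss2, St14, Prss8, Nr3c1, Klhl3, Car12, Atp6v0d1, Atp6v1g1, Atp4a, Atp12a, Krt7, Cav1, Cav2, Slc34a2, Slc4a11, Slc52a3, Adra2a, Slc12a3, Adcy6, Gata3, Irx1, Sim1, Acadm, Cpt1a, Adh1, Wfdc15b, Spp1, Defb1 and Ly6a. Some genes under this rule are not reported here. Members and gene lists were chosen with earlier results of these data known. Alternatives were the pseudocount, filter, scaling, variance model, test, leaving out each tubule, and, added after seeing the data, the header prefix and a minimum of 10000 genes. Promoter windows are from RefSeq (GRCm38.p6).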

Additional observations from a re-analysis of the deposited data

Results flagged for a closer look

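Among the 251 named genes tested, 47 had 1 of the 8 cTAL tubules whose gap to the nearest other tubule took a larger share of the group's range, on the log2(TPM + 1) scale, than Dixon's 95% critical value. Chance flags about 1 gene in 20 by this measure only where values are normally distributed, which was not tested. The chance rate for these genes is therefore unknown. For many genes near 0 in cTAL the gap is a fraction of 1 TPM or a few TPM. The 11 CCD tubules were not searched. Far below and far above refer here to this gap and not to a large fold: for Kng2 the flagged tubule at 2346 TPM stood beside a next lowest at 3059 TPM. Tubule m1_cTAL1 was far below the others for Nr3c2 (0.81 TPM), Esrrb (2.12 TPM) and Hoxa10 (2.13 TPM). Tubule m2_cTAL1 was far below the others for Ptgds (0 TPM) and Hoxb2 (0.1 TPM). Tubule m3_cTAL1 was far below the others for Tmem207 (70.05 TPM), Tmprss2 (35.5 TPM), Car15 (113 TPM), Tjp3 (0.03 TPM), Tinag (54.9 TPM), Erbb4 (0.01 TPM), Bmp4 (29.6 TPM) and Esrrg (2.26 TPM). Tubule m4_cTAL1 was far below the others for Kcnt1 (0.02 TPM), Hoxd10 (9.88 TPM) and Hoxc9 (0.9 TPM). Tubule m6_cTAL1 was far below the others for Slc12a1 (1878 TPM) and Kng2 (2346 TPM). Tubule m1_cTAL1 was far above the others for Fgf18 (0.03 TPM) and Cox7a1 (421 TPM). Tubule m2_cTAL1 was far above the others for Slc8a1 (7.02 TPM), Trpv6 (0.22 TPM), Adra2a (0.05 TPM), Heyl (0.69 TPM) and Gata3 (0.62 TPM). Tubule m3_cTAL1 was far above the others for Slc4a11 (122 TPM), Bmpr1b (0.06 TPM), Bdh1 (375 TPM) and Slc2a1 (296 TPM). Tubule m6_cTAL1 was far above the others for Aqp6 (0.82 TPM), Slc4a9 (3.97 TPM), Atp12a (4.98 TPM) and Slc52a3 (3.67 TPM). Tubule m6_cTAL2 was far above the others for Stc1 (1.61 TPM), Itga2b (4.55 TPM), Tgfa (0.03 TPM), Stim1 (7.69 TPM), Dll1 (1.7 TPM) and Nrarp (2.52 TPM). Tubule m7_cTAL1 was far above the others for Kcnj13 (3.85 TPM), Aqp4 (0.18 TPM), Calb1 (14.4 TPM), Wnt9b (0.03 TPM) and Gata2 (1.11 TPM). Tubule m7_cTAL2 was far above the others for Ptges (2.05 TPM), Pde3b (1.79 TPM) and Wnt4 (0.95 TPM). Tubule m3_cTAL1, low for the most genes, also had the fewest genes at 1 TPM or more among the cTAL tubules, 8094; the part of this in the differences above was not tested. No call of the genes listed here was lost when that tubule was left out.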

How the results depend on the processing

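Leaving out each tubule in turn gave 2242 to 3075 called genes (1536 to 2245 higher in CCD, 686 to 830 in cTAL) and 663 to 822 separated genes, each time the most without m2_CCD2 for the calls. Quantile normalization raised the calls higher in cTAL to 1244. Sample weights raised the calls to 4401, of which 3391 were higher in CCD. With only the tubules that had at least 10000 genes (10 CCD, 5 cTAL), chosen after seeing the data, 1087 genes were separated, 684 towards CCD and 403 towards cTAL, where fewer tubules have to be kept apart. The cause of the other changes was not tested. Of the 251 named genes tested, none changed direction under any alternative, and 13 lost their call under at least 1 alternative other than leaving out a tubule. Such a loss is described above for Upk1a, Atp6v0a4 and Atp6v1g1, and the others are not marked where they are named. Levels of the single cells by the median placed 165, 57 and 92 of the genes separated towards CCD in principal, type A and type B cells (52.5%, 18.2% and 29.3%, against 21.9%, 31.8% and 46.2% over all tested genes, each of those that could be placed), and by the share of cells 230, 62 and 127 (54.9%, 14.8% and 30.3%, against 34.4%, 23.5% and 42.1%). Type B cells thus hold a smaller share than over all genes by these 2 summaries, and one close to it by the mean.

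The column headers carry prefixes m1 to m7 whose meaning is not stated. Tubules of the same prefix correlated in their deviations at r from 0.015 to 0.159 across the segments and from -0.126 to 0.305 within a segment. Of 6 prefixes 2 correlated best with themselves. These values cannot tell whether tubules of a prefix share a mouse, so the prefix was used in alternatives only. As a replicate block the prefix gave 2588 calls as a fixed and 2763 as a random term, and means per prefix gave 1796. The block by title numbers was not run because the columns carry none.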
